A study of Drosophila melanogaster with 3 samples.

Results

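The peaks described here are binding regions of the ecdysone receptor EcR whose summits lay at the starts of noncoding genes and away from every protein-coding start. A peak of the optimal list was taken when its summit, the base of highest signal, lay within 500 bp of an annotated transcript start of a noncoding gene and more than 500 bp from all protein-coding starts. Of 9095 optimal peaks, 321 met this rule, which is 3.53%. The rule used position alone and no signal value. The chromatin came from whole Drosophila melanogaster pupae with an age of 24 hours in the labels, males and females together, of a line that stably carries EcR with enhanced GFP at its C-terminus. Sonicated chromatin was precipitated with an antibody against GFP. The 3 biological replicates form the only group, all carry the tagged receptor, and no untagged line, other age or hormone treatment was analysed here. The lists hold no read numbers, so the depth behind a peak is unknown, and whole animals mix cell types, so binding in a few cells cannot be told apart from weaker binding in many.

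EcR is a nuclear receptor. With its partner ultraspiracle it binds the steroid hormone ecdysone, whose pulses time moulting and metamorphosis, and the pair recognises inverted repeats of a short receptor site. Noncoding genes make RNAs that are not translated. Long noncoding RNAs and antisense RNAs are made like messenger RNAs, microRNAs are cut from hairpins and repress messenger RNAs through a seed of 7 bases, and tRNAs, small nuclear RNAs (snRNAs) and small nucleolar RNAs (snoRNAs) serve translation, splicing and RNA modification. In flies the let-7 complex, a noncoding transcript that holds let-7, is known to be switched on by ecdysone at metamorphosis.

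Sequences under some of these summits are shown first, read from the RefSeq genome of the same assembly as dm6, because the receptor is known to recognise such repeats. The inverted repeat searched was 2 receptor sites of 6 bases facing each other with 1 base between them, with at most 1 mismatch, on both strands, within 100 bp of the summit. It was found in 19 of the 321 peaks. Of the 4 matches with 0 mismatches, 3 are given here with 14 bases on each side, read from the plus strand of dm6, with the repeat in capitals.
mir-bft (chr2L:11952995-11953035): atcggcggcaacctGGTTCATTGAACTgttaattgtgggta
lncRNA:CR45103 (chr3R:18157511-18157551): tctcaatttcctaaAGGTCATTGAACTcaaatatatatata
lncRNA:CR43801 (chr2L:6074349-6074389): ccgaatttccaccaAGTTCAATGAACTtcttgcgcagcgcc
The next lines show matches with 1 mismatch. The first 2 lie under the peaks of ranks 12 and 29 in the optimal list, where rank 1 is the strongest, the third lies upstream of a microRNA, the fourth lies in an intron of the ecdysone response gene Eip75B, and the last lies in the ecdysone response gene vri.
lncRNA:CR44588 (chr2L:12014024-12014064): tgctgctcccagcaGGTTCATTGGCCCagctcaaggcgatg
lncRNA:CR44867 (chr2L:15911799-15911839): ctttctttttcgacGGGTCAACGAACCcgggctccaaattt
mir-277 (chr3R:10099724-10099764): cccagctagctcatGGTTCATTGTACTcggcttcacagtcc
lncRNA:CR45921 (chr3L:17981688-17981728): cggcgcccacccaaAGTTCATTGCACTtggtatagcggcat
lncRNA:CR45730 (chr2L:5298385-5298425): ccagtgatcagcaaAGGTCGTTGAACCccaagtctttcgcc

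Several peaks lay at microRNA genes. The mature RNAs, from RefSeq, of those the results return to are shown 5′ to 3′ with the seed, bases 2 to 8, in capitals. The mir-279 and mir-996 arms share the seed GACUAGA, and both lie in the transcript of lncRNA:CR31044. The mir-275 hairpin lies in lncRNA:CR43857, and the mir-305 hairpin lies past its annotated end.
mir-279, 3p arm (chr3R:29215651-29215672, plus strand): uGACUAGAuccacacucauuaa
mir-996, 3p arm (chr3R:29217244-29217265, plus strand): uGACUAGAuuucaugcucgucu
mir-275, 3p arm (chr2L:7425853-7425875, plus strand): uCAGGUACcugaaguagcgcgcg
mir-305, 5p arm (chr2L:7425979-7426001, plus strand): aUUGUACUucaucaggugcucug
mir-277, 3p arm (chr3R:10100080-10100102, plus strand): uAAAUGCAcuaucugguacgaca
mir-276a, 3p arm (chr3L:10365281-10365302, plus strand): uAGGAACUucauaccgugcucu
mir-9a, 5p arm (chr3L:19565140-19565162, plus strand): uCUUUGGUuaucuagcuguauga
mir-bft, 5p arm (chr2L:11953463-11953486, minus strand): aAUGGCACuggaagaauucacggg

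The 321 peaks recurred between replicates. Each replicate list holds 30000 peaks. Among the 9095 strongest peaks of a replicate, as many as the optimal list holds, 84.4%, 88.2% and 84.7% of the 321 had a summit within 100 bp in replicates 1, 2 and 3. The mean was 85.8% ± 2.07 (SD, n = 3), beside 83.8% ± 0.869 for the peaks within 500 bp of a protein-coding start and 84.9% ± 1.18 for all other optimal peaks. Within replicates the share was higher than that of the peaks at protein-coding starts by 1.11, 3.37 and 1.49 percentage points (1.99 ± 1.21, SD, n = 3; exact two-sided sign-flip permutation test, p = 0.25, the smallest that 3 replicates can give here and in every such test that follows). Against all other optimal peaks the differences were 0.357, 3.79 and -1.51 points (0.879 ± 2.69, same exact test, p = 0.75), which is within the spread between replicates. In all 3 replicates 218 of the 321 (67.9%) recurred, close to the 66.2% of all optimal peaks. Of the 321, 71 recurred in 2, 30 in 1, and 2 in 0. In the whole replicate lists 289 of the 321 were found in all 3, 27 in 2 and 5 in 1. Of the 9095 optimal peaks, 8286 were found in all 3 whole lists. Because the authors built the optimal list out of the same replicates, recurrence describes the list and is not an independent check. When the rule was applied anew to the 9095 strongest peaks of each replicate, it found 325, 333 and 306 peaks (321 ± 13.9, SD, n = 3), of which 265, 281 and 266 matched one of the 321. The ranks of the 321 were correlated between replicates, with Spearman's rho of 0.830 over 297 peaks between replicates 1 and 2, 0.821 over 299 between 1 and 3, and 0.802 over 298 between 2 and 3. Over all optimal peaks, rho was 0.848, 0.772 and 0.771 for the same pairs. All these values are across peaks, which share libraries and are not replicates.

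Long noncoding RNA genes held most of the peaks, and the small structural RNAs held few. By the nearest noncoding start, 226 peaks (70.4%) lay at long noncoding RNAs, 38 at antisense RNAs, 21 at microRNAs, 20 at tRNAs, 7 at snoRNAs, 5 at other noncoding RNAs, 4 at snRNAs and 0 at ribosomal RNAs. The 321 summits lay in 273 peak regions, because a wide region can hold several summits, and were nearest to 274 genes, of which 46 were nearest to 2 or more. A noncoding gene with every start within 500 bp of a protein-coding start was not counted, although it can be the nearest to a peak, as for some of the 38 at antisense RNAs. A further noncoding gene started within 500 bp of 21 of the peaks. Of the 2922 noncoding genes with at least 1 start farther away, 280 had such a peak, which is 9.58%. Of 13945 protein-coding genes, 2693 had an optimal summit within 500 bp of a start, which is 19.3%. Over the strongest peaks of the replicates the shares were 9.57% ± 0.557 of noncoding genes and 18.9% ± 0.557 of protein-coding genes (SD, n = 3). The difference was -9.35 percentage points ± 0.187, lower for noncoding genes in 3 of 3 replicates (exact two-sided sign-flip permutation test, p = 0.25). Counted per start, 292 of 3037 noncoding starts (9.61%) had a peak of the 321, and 3624 of 19252 protein-coding starts (18.8%) had any optimal summit. Summits within 500 bp of a protein-coding start are left out of the noncoding shares alone, which can lower them. The noncoding and protein-coding shares, per gene and per start, are thus not counted alike.

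The classes differed from each other in the share of genes with a peak. Long noncoding RNA genes had the steadiest share, at 11.7%, 11.4% and 11.4% of 1705 genes in the 3 replicates (11.5% ± 0.169, SD, n = 3). For antisense RNAs the share was 6.81% ± 0.635 of 328 genes, and for microRNAs it was 7.36%, 7.36% and 6.93% of 231 genes. In each replicate the share of long noncoding RNA genes was above both. The tRNA genes varied most, at 10.9%, 15.1% and 7.36% of 258 genes, a range that takes in the share of the long noncoding RNAs. The snoRNA genes had the lowest share above 0, at 3.75% ± 1.25 of 240 genes. None of the 99 ribosomal RNA genes had a peak in the optimal list or among the strongest peaks of a replicate. Ribosomal RNA, tRNA, snRNA and snoRNA genes have near-identical copies, and no source used here tells how reads matching several copies were placed. Values at single genes of these classes are uncertain.

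**Figure D1:**
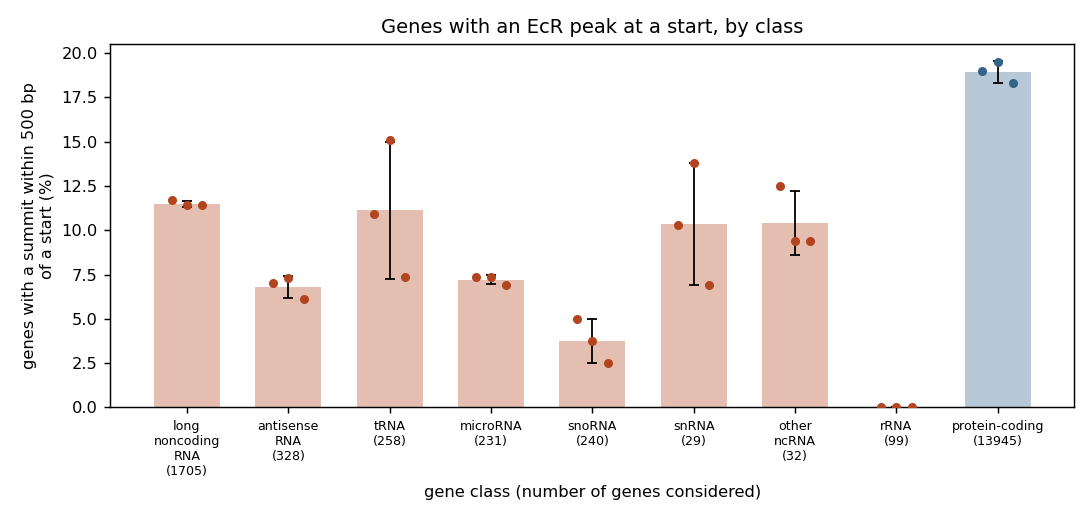
Share of genes (percent, vertical axis) with an EcR summit within 500 bp of a start among the 9095 strongest peaks of each replicate, by gene class, with the number of genes considered in brackets. For noncoding classes, only starts and summits over 500 bp from every protein-coding start were counted. Bars are means of 3 replicates, whiskers are SD and points are replicates. Long noncoding RNA genes sit at 11.5%, the tRNA points spread between 7.36% and 15.1%, and protein-coding genes, at the right, average 18.9%.

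Peaks at noncoding starts were slightly stronger than those at protein-coding starts. Strength was taken as the percentile of the authors' signal within each replicate list of 30000 peaks, where 100 is the strongest. The median percentile of the 321 peaks was 86.5, 86.9 and 86.4 in replicates 1, 2 and 3 (86.6 ± 0.261, SD, n = 3). For peaks at protein-coding starts it was 83.6, 84.1 and 83.3 (83.7 ± 0.391), and for all optimal peaks outside the 321 it was 84.5, 84.6 and 84.8 (84.6 ± 0.129). The 321 were thus higher than the peaks at protein-coding starts by 2.87 ± 0.134 percentile points and higher than all other optimal peaks by 1.94 ± 0.353, in 3 of 3 replicates each (exact two-sided sign-flip permutation test, p = 0.25 for both). Against peaks at neither kind of start the difference was 1.46 ± 0.566 points, again positive in 3 of 3 replicates. These differences exceed the spread between replicates, but the design cannot reach a p under 0.05. The 321 also lay in wider regions, with a median width of 714 bp against 506 bp at protein-coding starts, and 38.3% of them shared a region with another summit, against 28.3% at protein-coding starts. In 12 cases the shared region also held a summit at a protein-coding start. The part of region width in the difference in strength was not tested.

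In the optimal list the signals of the 321 ran between 360 and 11070 with a median of 693, against a median of 595 at protein-coding starts. Their median percentile in that list was 56.4, with the middle 50% between 30.2 and 79.4, against 46.5 at protein-coding starts. The upper end was where they were most frequent. They made up 9 of the 50 strongest optimal peaks (18.0%), 10 of the strongest 100, 29 of the strongest 500 (5.80%) and 54 of the strongest 1000 (5.40%), beside 3.53% of the whole list. By class, the median percentile in the optimal list was 63.1 at antisense RNAs, 58.8 at long noncoding RNAs, 49.0 at tRNAs, 47.8 at microRNAs and 31.7 at snoRNAs. The strongest peak at a snoRNA had rank 2580.

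**Figure D2:**
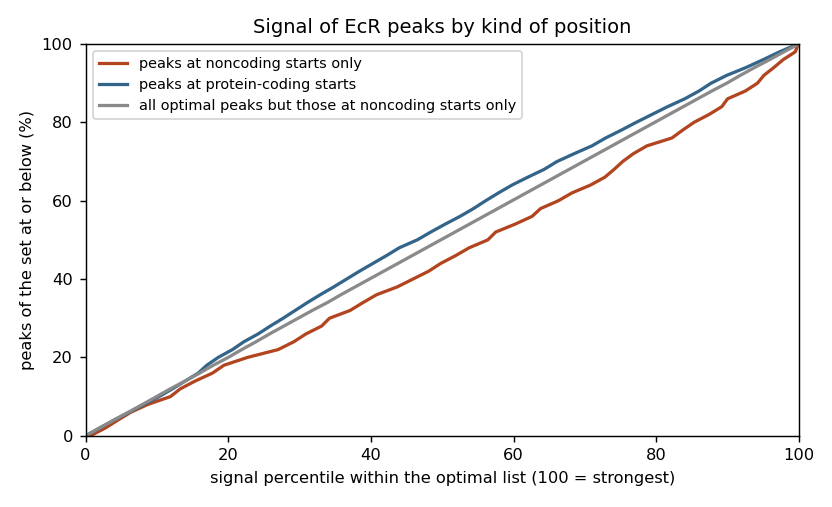
Cumulative share of peaks (percent, vertical axis) by signal percentile within the optimal list (horizontal axis, 100 is the strongest) for the 321 peaks at noncoding starts only, the 2991 peaks at protein-coding starts and all optimal peaks outside the 321. The curve of the peaks at noncoding starts lies below the other curves over most of the range, with medians of 56.4 against 46.5 at protein-coding starts.

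The strongest of these peaks lay at long noncoding RNAs known by a number alone, several of them inside or beside genes of the ecdysone response. The strongest of all, with rank 12 in the optimal list and ranks 12, 13 and 11 in the 3 replicates, lay 482 bp downstream of the start of lncRNA:CR44588 on chromosome 2L, with its summit at 12014010 (dm6). It was 5632 bp from the nearest protein-coding start, that of the rhodopsin gene Rh5, in a region of 4735 bp with 5 summits. The peak at lncRNA:CR43904 had ranks 13, 14 and 13 in the replicates and 15 in the optimal list. It lay in an intron of the EcR gene itself, on the strand opposite to EcR and 1831 bp from the nearest EcR start (2R, summit 6158960). The peak at lncRNA:CR44742 had ranks 20, 26 and 21. It lay 839 bp from a start of vri, a gene for a leucine zipper repressor of the circadian clock that also belongs to the ecdysone response.

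The next peaks followed close behind. The summit at lncRNA:CR44709 had ranks 25, 32 and 20 and lay 51 bp upstream of the start, 2927 bp from the nearest protein-coding start. The summit at lncRNA:CR44867 had ranks 49, 45 and 18. It lay in an intron of beat-Ib, a gene of the immunoglobulin family, on the opposite strand, and carries the repeat shown above. The summit at asRNA:CR45868 had ranks 35, 35 and 36 and lay in an intron of bip1 with the perfect repeat 13 bp from the summit. The peak at lncRNA:CR45392 had ranks 43, 44 and 40, and another summit at this gene, in the same region, had rank 410 in the optimal list.

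At lncRNA:CR45922, in an intron of Eip75B on the same strand, the ranks were 59, 54 and 28. Eip75B encodes a nuclear receptor and is a classical early gene of the ecdysone response. The peak at lncRNA:CR31044 had ranks 67, 42 and 45 and lay 192 bp upstream of the start of this host of mir-279 and mir-996. The 2 microRNAs inside it had far weaker peaks of their own, with rank 5986 at mir-279 and rank 8947 at mir-996 in the optimal list. The replicates placed the mir-279 peak at ranks 19412, 3685 and 6726, so replicate 1 stood apart. The peak at lncRNA:CR45936 had ranks 120, 143 and 77.

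The remaining 5 of the 15 strongest included small RNA genes. A summit at snRNA:7SKa, a gene for the 7SK RNA that holds the elongation kinase P-TEFb inactive, had ranks 68, 92 and 216, and lay 209 bp downstream of the start (3R, summit 7474787). At mir-9374, in an intron of Hr39, a nuclear receptor gene of the ecdysone response, the ranks were 147, 129 and 107, and the summit lay 650 bp from an Hr39 start. The peaks at lncRNA:CR45565, lncRNA:CR44274 and lncRNA:CR44409 had ranks of 167, 182 and 191, of 254, 225 and 177, and of 253, 252 and 178. The last of these lay in an intron of Dif, a gene for an NF-κB factor of immunity, on the opposite strand.

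**Figure D3:**
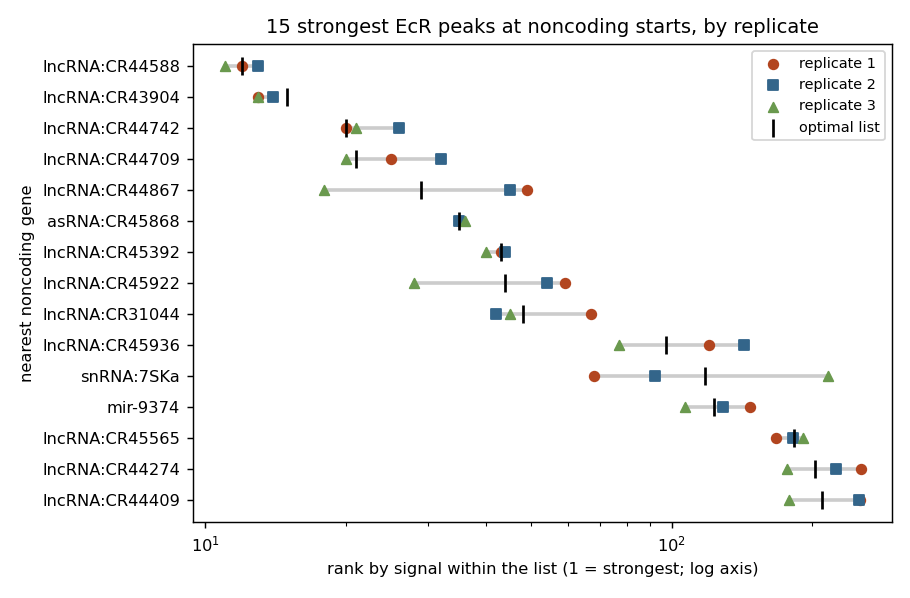
Rank by signal (horizontal log axis, 1 is the strongest) of the 15 strongest EcR peaks at noncoding starts in the 3 replicate lists (circle, square, triangle) and in the optimal list (bar), with 1 row per peak named by its nearest noncoding gene. Grey lines span the replicates. The ranks at asRNA:CR45868 lie between 35 and 36, and those at snRNA:7SKa between 68 and 216.

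Genes of the ecdysone response held a share of these peaks close to their share of all others. Of the 321 peaks, 13 (4.05%) lay in the region of 1 of 28 ecdysone response genes, counting the gene body and 2000 bp upstream, against 336 of the other 8774 optimal peaks (3.83%). They lay at 7 of the 28 genes, and 4 of the 13 were among the 15 strongest peaks at noncoding starts. The share of other optimal peaks of similar rank in these regions was not computed. Whether strong peaks at noncoding starts differ from other strong peaks in this was therefore not tested. Eip75B held 3 of its 83 optimal summits at noncoding starts, those at lncRNA:CR45922 with ranks 44 and 2378 and that at lncRNA:CR45921 with rank 1564. The EcR gene held 2 of its 43, that at lncRNA:CR43904 and a weaker one at tRNA:Arg-ACG-1-1 with ranks 4427, 4436 and 4373 in the replicates. In vri 2 of 16 were of this kind, and the weaker one, at lncRNA:CR45730 with rank 7231, carries the repeat shown above. Hr3, a nuclear receptor gene that acts after the early genes, held 2 of 12, at lncRNA:CR46322 with rank 434 and at lncRNA:CR45265 with rank 5095. The site at lncRNA:CR45265 lies in an intron of Hdc, the histidine decarboxylase gene. Eip63E, a cyclin-dependent kinase gene, held 2 of 11, both at lncRNA:CR45820 with ranks 5546 and 7661. In ftz-f1, a nuclear receptor gene of the prepupa, 1 of 12 lay at lncRNA:CR45938 with rank 6259, and in Hr39 the peak at mir-9374 was 1 of 8. The other 21 genes of the list, among them Eip74EF with 25 summits and br with 18, held none at a noncoding start alone.

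The microRNA peaks lay at hairpins that are part of longer genes. Of the 21, 11 lay at hairpins within a protein-coding gene on the same strand and 10 at hairpins within a long noncoding RNA only. The share of all microRNA genes within longer genes was not counted, so this is not shown to be particular to those with a peak. The start of a hairpin is not the start of the transcript it is cut from, so a peak near a hairpin need not be at a promoter. The strongest after mir-9374 was at mir-4914 in CG31689, with ranks 340, 560 and 510 in the replicates. At mir-275, with mir-305 within 500 bp, a summit 250 bp upstream had ranks 564, 794 and 425 and another, 51 bp upstream, had ranks 2142, 3965 and 7684. The peak 297 bp upstream of mir-277, a microRNA that acts in the breakdown of branched-chain amino acids, had ranks 2276, 1395 and 1273 and carries a repeat shown above. At mir-bft, also called mir-263a, which protects sense organ precursors from death, the ranks were 4056, 4570 and 3356. The peak at mir-14, which is known to repress EcR, had ranks 7585, 10416 and 7209, near the bottom of the optimal list at 8268. Those at mir-276a, mir-8 and mir-9a had ranks of 4899, 7496 and 7811 in that list.

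Of 38 noncoding genes with a known role, 10 (26.3%) had a peak at a start, beside 9.58% of all noncoding genes considered. A further 10 had a summit only among the weaker pooled peaks and 18 had none. The list was put together with results of these data known, so its share is given without a test. MicroRNAs gave 7 of the 10, out of 24 in the list, and mir-275 and mir-305 shared their peaks. The peak at let7C, the transcript that holds mir-100, let-7 and mir-125, lay 99 bp upstream of the start with ranks 1256 and 1614 in replicates 1 and 2 and 9707 in replicate 3, so replicate 3 stood apart. The peak at Hsromega, the heat shock RNA that organises nuclear speckles, had ranks 6036, 4045 and 9376. The gene for the RNA of RNase MRP, which cuts ribosomal RNA precursors, had 2 summits, with ranks 4164 and 7524 in the optimal list. The X chromosome dosage compensation RNAs roX1 and roX2 had no optimal peak at a start, and roX2 had only a weak pooled summit of rank 20741. The 7SL RNA of the signal recognition particle, the RNA of RNase P, and the long RNAs bxd, acal, CRG, yar, sphinx and iab8 also had none in the optimal list. Of 32 snRNA genes 3 had a peak. At 7SKa the ranks in the optimal list were 118 and 5011, at the U1 gene U1:95Ca 2929 and at the U5 gene U5:63BC 8576, where U1 and U5 are RNAs of the spliceosome. The U1:95Ca peak had rank 9619 in replicate 1 and ranks 2519 and 3137 in replicates 2 and 3.

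The strongest tRNA peaks lay at tRNA:Ala-TGC-2-1 with ranks 636, 413 and 912, at tRNA:Leu-CAA-2-3 with ranks 589, 508 and 990, and at tRNA:Lys-TTT-1-1 with ranks 900, 745 and 1441. In each of these 3 the weakest rank came from replicate 3. The 20 tRNA peaks lay mostly before the gene, with 15 upstream of the start and 5 downstream. The noncoding gene with the most peaks was lncRNA:CR46036, in an intron of osa, a gene for a subunit of a chromatin remodelling complex. It had 3 summits, with ranks 2251, 2291 and 5386. After the 15 strongest, the best antisense RNA peaks were at asRNA:CR45952 with ranks 249, 346 and 340 and at asRNA:CR45908 with ranks 410, 512 and 613. At small RNAs of other kinds, sncRNA:838 had ranks 1219, 952 and 1142, and snoRNA:Psi18S-1347a had ranks 4965, 3072 and 2012.

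The summits lay farther from noncoding starts than other summits lay from protein-coding starts. The median distance was 194 bp for the 321 and 134 bp for the 2991 peaks at protein-coding starts. Within 100 bp of the start lay 85 of the 321 (26.5%), against 1118 of the 2991 (37.4%). In the replicates the median distance was 185, 193 and 220 bp at noncoding starts, against 135, 130 and 144 bp at protein-coding starts. The distance to a start is what chose both sets, so these values are a description with no test. Both medians are bounded by the 500 bp of the rule, and the 400 to 500 bp bin still held 53 of the 321 (16.5%) against 240 of the 2991 (8.02%). More of the 321 lay downstream of the start (176, 54.8%) than upstream (145, 45.2%), against 1433 downstream (47.9%) and 1558 upstream (52.1%) at protein-coding starts. Just inside the limit lay the peaks at lncRNA:CR44511 at 500 bp with rank 317, at mir-bft at 491 bp with rank 3650 and at lncRNA:CR44764 at 490 bp with rank 7414. Just outside lay peaks at lncRNA:CR46006 and lncRNA:CR46260, both at 501 bp with ranks 248 and 829, and at lncRNA:CR43785 at 502 bp with rank 2070.

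**Figure D4:**
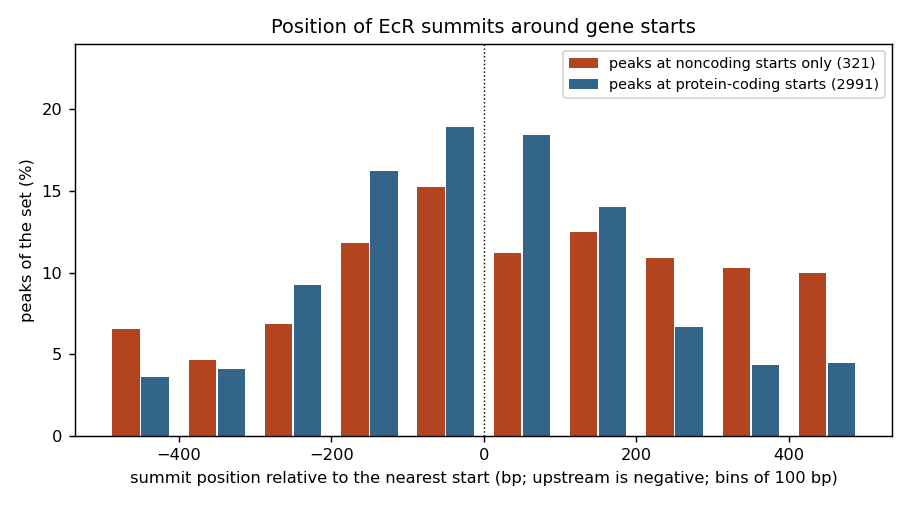
Position of summits relative to the nearest start (horizontal axis, bp, upstream negative, bins of 100 bp) as a share of each set (percent, vertical axis), for the 321 peaks at noncoding starts only and the 2991 peaks at protein-coding starts. The protein-coding set is gathered at the start, with 37.4% within 100 bp on both sides, and the noncoding set is flatter, with 26.5%.

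Fewer of these peaks lay inside protein-coding genes than other peaks did. Of the 321, 147 (45.8%) lay in the body of a protein-coding gene and 174 outside, against 77.5% inside among the other optimal peaks. In the replicates the shares inside were 45.0% ± 1.04 and 77.9% ± 0.253 (SD, n = 3). The rule ties the 321 to noncoding starts, of which 1252 of the 3037 considered (41.2%) lie inside protein-coding genes themselves, so these shares are a description with no test. Among the 5783 peaks at neither kind of start 78.5% lay inside. Of the 147, 126 lay in introns, 11 in coding exons, 9 in 3′ untranslated regions and 1 in a 5′ untranslated region. The host gene ran on the strand opposite to the noncoding gene for 93 of them and on the same strand for 54. An exon of a noncoding gene held 171 of the 321 summits (53.3%). The split by strand and this share were not counted over all noncoding starts, so they describe the set alone. The median distance to the nearest protein-coding start was 2664 bp, with 57 peaks within 1000 bp and 101 over 5000 bp away.

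The X chromosome held a smaller share of these peaks than of all optimal peaks, but its share of noncoding genes with a peak was like that of 2L. It held 29 of the 321 (9.03%) against 15.4% of the optimal peaks. Over the replicates the shares were 10.3% ± 1.19 of the peaks at noncoding starts and 15.4% ± 0.684 of all strongest peaks (SD, n = 3). The rule ties the 321 to noncoding starts, and X held 349 of the 2922 noncoding genes considered. Per gene, 6.59% of these 349 had a peak, against 8.41% on 2L, 9.67% on 2R, 11.2% on 3L and 11.1% on 3R. In the replicates the gene shares were 7.93% ± 0.331 on X, 10.9% ± 0.694 on 3L and 11.3% ± 0.550 on 3R, but 7.91% ± 0.568 on 2L, so X and 2L did not differ beyond their spread. Chromosome 4 held 0 of the 321, with 12 optimal peaks in all.

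The inverted repeat was more frequent under these summits than in their flanks and than under peaks at protein-coding starts. It lay within 100 bp of the summit in 19 of the 321 (5.92%), beside 4.84% of all optimal peaks, 4.80% of the optimal peaks outside the 321 and 2.31% of those at protein-coding starts. Windows of the same 201 bp centred 1000 bp to either side of the 321 held it in 0.935% of cases. In the replicates the share was 4.92%, 6.01% and 7.19% at noncoding starts (6.04% ± 1.13, SD, n = 3), 2.24% ± 0.416 at protein-coding starts and 0.728% ± 0.103 in the flanks. The difference was 3.80 percentage points ± 0.849 against protein-coding starts and 5.31 ± 1.03 against the flanks, in 3 of 3 replicates each (exact two-sided sign-flip permutation test, p = 0.25 for both). Peaks at neither kind of start had 5.66% ± 0.620, and within replicates the share at noncoding starts differed from theirs by 0.378 points ± 0.629, which is within the spread (exact two-sided sign-flip permutation test, p = 0.5). Against all peaks outside the set the difference was 1.55 points ± 0.684, positive in 3 of 3 replicates. In the stronger 50% of the optimal peaks, however, the shares were 6.70% at noncoding starts and 6.39% of the others. With 2 mismatches allowed the order turned, with 16.5% of the 321 against 18.7% of the other optimal peaks.

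**Figure D5:**
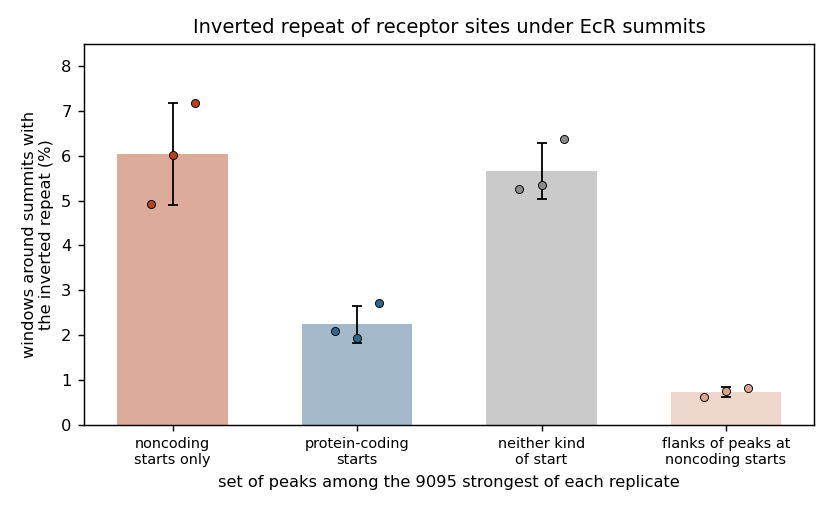
Share of 201 bp windows (percent, vertical axis) with the inverted repeat of receptor sites at up to 1 mismatch, among the 9095 strongest peaks of each replicate. Bars are means of 3 replicates, whiskers are SD and points are replicates. Peaks at noncoding starts average 6.04%, those at protein-coding starts 2.24%, those at neither 5.66%, and the flanks of the peaks at noncoding starts 0.728%.

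The 19 matches sat close to the summit. Their centres lay 1 to 75 bp away with a median of 20 bp, 10 of them within 20 bp, although windows reached 100 bp. The peaks with a match had a median rank of 1564 in the optimal list, against 4084 for the 302 without one, and 17 of the 19 recurred among the strongest peaks of all 3 replicates. These values are given for this set alone and are not shown to be particular to it. Among the other optimal peaks, too, the repeat was more frequent in the stronger 50% (6.39%) than in all of them (4.80%). By class, 16 of the matches lay at long noncoding RNAs, 2 at microRNAs and 1 at an antisense RNA. The 4 matches with 0 mismatches were under peaks of ranks 35, 3650, 5501 and 8713. So few peaks cannot show whether a perfect repeat goes with a strong peak. Among the 15 strongest peaks at noncoding starts, 3 had a match and 12 did not. A match is a match of letters and does not show that the receptor bound there.

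The other motifs were searched in the same windows on both strands with 0 mismatches, apart from the everted repeat of the same 2 sites, which was allowed 1 mismatch and was found in 0 of the 321 and in 0.490% of the other optimal peaks. The other optimal peaks include those at protein-coding starts. For the motifs of this paragraph, peaks at neither kind of start were not counted apart. The single receptor site AGGTCA, which can overlap the inverted repeat, lay in 8.72% of the 321, against 7.74% of the other optimal peaks. It lay in 5.82% at protein-coding starts and 4.52% of the flanks of the 321. In the replicates it lay in 8.32% ± 0.726 of peaks at noncoding starts and 7.67% ± 0.461 of the others (SD, n = 3). The GAGA repeat GAGAGAG, bound by the GAGA factor, lay in 12.1% of the 321, 10.5% of the others and 2.80% of the flanks. In the replicates it lay in 10.7% ± 0.193 of peaks at noncoding starts and 10.5% ± 0.469 of the others (SD, n = 3), a difference within the spread. The site TATCGATA, known as the DNA replication-related element and typical of housekeeping promoters, lay in 1 of the 321 (0.312%). It lay in 2.17% at protein-coding starts, 0.957% of the other optimal peaks and 0.623% of the flanks of the 321. The E-box CACGTG lay in 1.87% against 2.64% of the others, and the Zelda site CAGGTAG in 1.87% against 1.07%, each in 6 of the 321. In the replicates the E-box lay in 2.29% ± 0.282 against 2.66% ± 0.0440, and the Zelda site in 1.16% ± 0.521 against 1.15% ± 0.147 (SD, n = 3), so the gap at the Zelda site was within the spread.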

How the data were processed

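EcR ChIP-seq was deposited as narrowPeak lists of the 3 replicates, a pooled list and an optimal list, in dm6. The optimal list was cut at an IDR threshold, where IDR scores the agreement of ranks between replicates. Per the deposited notes, the replicate lists came from each replicate's alignment and a control alignment, which was not analysed here. The signal value of each peak is the authors' own, with no scaling named in the deposited notes, and served for ranking inside 1 list. The authors' −log10 q-value, as deposited, equalled 4.55 in every optimal peak and was not used. Summit positions come from the deposited offset column. The 9095 optimal peaks are the strongest of the 30000 pooled peaks. A single peak in the optimal list therefore need not recur in every replicate, and 5 of the 321 were found in only 1 whole replicate list. No source used here names the aligner or peak caller or gives read numbers.

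Summits were set against transcript starts of the Ensembl annotation of the same assembly, leaving out 481 entries for mature microRNA arms, which did not change the set of 321. RefSeq gave the class of all 3470 noncoding genes, the mature microRNA coordinates and the sequences. Not every sequence is reported here. Differences between sets were taken within each replicate and tested over the 3 replicates with an exact two-sided sign-flip permutation test. Peaks were not treated as replicates. The scripts (Python 3.11.15, NumPy 2.4.6, SciPy 1.17.1) were tested on simulated data.

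The peaks and the gene lists were chosen with earlier results of these data known. Named are the 15 strongest peaks, the 3 strongest per class, peaks at noncoding genes of known role and in regions of ecdysone response genes, the genes with most peaks, and those at the distance limit. Alternatives changed the distances, the threshold, the matching of summits, the motif search and the replicates used.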

Additional observations from a re-analysis of the deposited data

How the results depend on the processing

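The number of peaks at noncoding starts followed the distance and the threshold: 194 with a limit of 250 bp, 518 with 1000 bp and 179 in the stronger 50% of the list, against 321, and between 236 and 249 without 1 replicate. The share of noncoding genes with such a peak, 9.58%, was 6.06%, 13.8% and 5.30% under the same settings, 8.83% with 1 summit per region, and between 7.36% and 7.84% without 1 replicate. The share inside protein-coding genes, 45.8%, was 47.9% with 1000 bp, 42.8% when protein-coding starts were excluded within 1000 bp, 46.9% in the stronger 50%, and between 45.4% and 47.5% without 1 replicate. Recurrence, 85.8%, was 76.9% and 90.3% when summits within 50 and 200 bp were matched, 96.2% in the whole replicate lists, 96.8% in the stronger 50%, and between 84.6% and 86.4% without 1 replicate. The inverted repeat, in 5.92% of the peaks, lay in 1.25% with 0 mismatches (0.524% of the other peaks) and in 16.5% with 2 (18.7% of the others). In the stronger 50% it lay in 6.70% (6.39% of the others). The share was 7.17% within 200 bp, and between 6.83% and 7.50% without 1 replicate.

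The differences in strength stayed positive in every setting run. Where 1 replicate was left out this was fixed in advance, because the difference was positive in each of the 3 replicates. They lay between 1.28 and 2.94 percentile points against protein-coding starts and between 0.940 and 2.12 against all other peaks. With percentiles taken among the 9095 strongest peaks of each replicate, an alternative chosen after seeing the data, they were 8.96 and 5.73. The whole replicate list, listed as an alternative, was already what the percentiles used. The mean replicate percentiles of the 15 strongest peaks moved by at most 1 SD in all 75 recomputed values. Leaving out 1 of 3 replicates cannot move such a mean by 1 SD, so only the values with other matching distances could have moved farther. For the number of peaks, the gene share, the share inside protein-coding genes and the repeat, leaving out a replicate kept only peaks found in both others. Those sets are smaller by construction. For strength, recurrence and the 15 strongest peaks, the same peaks were kept and the values of the remaining replicates were averaged. There is 1 group, so no samples could be paired across groups, and the differences above were already taken within each replicate. With depth unknown, a peak absent from a list is not shown to be absent from the chromatin.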

Other observations

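Several of the strongest peaks at noncoding starts lay near Eip75B, a neighbourhood singled out after the values were seen. Within 200 kb of the gene on 3L lay 9 of the 321 peaks (2.80%), beside 171 of the 9095 optimal peaks (1.88%). Of the 29 peaks at noncoding starts with a rank up to 500, 6 lay there, with rank 43 at lncRNA:CR45392, rank 44 at lncRNA:CR45922, rank 97 at lncRNA:CR45936, rank 224 at lncRNA:CR45393, rank 410 again at lncRNA:CR45392 and rank 411 at lncRNA:CR45937. Of the 12 noncoding genes in that stretch with a start over 500 bp from every protein-coding start, 6 had a peak there, beside 9.58% of such genes in the genome. Of all 500 optimal peaks with a rank up to 500, 40 lay in the stretch. Of these, 34 were outside the 321, so strong peaks there were not limited to noncoding starts. No test was made of this stretch.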
